A study of Mus musculus with 30 samples.

Results

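CD8+ T cells labelled as in vitro differentiated memory (TMem) were compared with CD8+ T cells labelled as naive-derived (TN). Each type was cultured by itself and collected 18 h after stimulation. The comparison used 3 TMem and 3 TN arrays of the 30 in the series, taken by their labels, and covered all 19103 genes measured on autosomes. Per the labels, all cells came from spleens of female adult C57BL/6 mice 6 to 12 weeks old, and all carried the Pmel-1 transgenic T cell receptor. TN cells came from Ly5.1 Pmel-1 Tg mice and TMem cells from Ly5.2 Pmel-1 Tg mice, so cell type and the congenic form of Ly5 (the product of Ptprc) always went together. Stimulation was with antibodies to CD3 and CD28 plus IL-2, and cells were sorted by flow cytometry before RNA was taken. Both groups shared the transgene, the stimulus and the sort. TMem cells were made in culture, by steps not given in the sources used here. The same contrast of TMem with TN was also available unstimulated (0 h), at 18 h for cells sorted back out of a mixed culture of both types (mix), and at 96 h alone, with 3 arrays in each group. The series describes triplicate biological repeats, and the labels do not say which mice each repeat came from.

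A naive CD8+ T cell is small, rarely divides, and is kept in lymphoid circulation by transcription factors such as KLF2, LEF1 and FOXO1 and by surface receptors such as IL-7 receptor and S1P1. Signals through the T cell receptor and CD28 start growth, glycolysis, lipid synthesis and division, and later the genes for cytokines, perforin and granzymes. A memory or effector-experienced CD8+ T cell keeps many of these genes accessible, so that it is known for making cytokines and cytotoxic proteins soon after stimulation.

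All values are log2 intensities, and a difference of 1 is a doubling. Differences are TMem minus TN, with the standard error (SE) of the limma fit and n = 3 arrays a group, and called means a Benjamini-Hochberg adjusted p under 0.05 over all genes. The SE pools the spread within all 10 groups of the series, so it does not measure the spread of the 6 values printed. A group mean below the average lower quartile of its arrays (5.66 for TMem and 5.74 for TN at 18 h) is called near background, and a difference from such a mean is written "at least". The 6 arrays were alike in spread and held no identical pair. Correlations over genes were 0.9956 to 0.9969 within a group and 0.9564 to 0.961 between groups. With 3 arrays against 3, an exact permutation test of 1 gene cannot go below p = 0.1.

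Before the results, the labels were set against the values. Both groups carried CD8+ T cell transcripts. Cd8a, which encodes the CD8 alpha chain, read 11.54, 11.60 and 11.73 in TMem and 12.26, 12.24 and 12.23 in TN, and Cd3e, a signalling chain of the receptor complex, read 12.12, 11.75 and 12.10 in TMem and 12.63, 12.77 and 12.75 in TN. Cd4, which marks the other main T cell lineage, read 6.33, 6.37 and 6.06 in TMem and 6.19, 6.37 and 6.41 in TN. Before stimulation, at 0 h, 28 of 28 mitosis genes were already higher in TMem (median 3.93). Of 14 surface activation markers 7 were higher and 4 lower then, against 18.6% and 17.5% of autosomal genes. Il2ra differed by 4.42 and Cd69 by -1.20 at 0 h. By the mitosis transcripts TMem did not read as resting cells before stimulation. Transcripts tied to sex did not follow the labels, which give every mouse as female. Xist, the RNA of the inactive X chromosome, read 5.42, 5.55 and 5.14 in TMem and 11.28, 11.18 and 11.34 in TN. Eif2s3y, a gene of the Y chromosome, read 9.21, 9.05 and 9.38 in TMem and 8.09, 8.09 and 8.25 in TN. TMem arrays were therefore near background for Xist with Y-linked transcripts present, and the TN arrays at 18 h carried both. TN arrays at 0 h and 96 h alone did not: Eif2s3y averaged 4.19 ± 0.33 (SD, n = 3) and 4.17 ± 0.04 there, against 8.14 ± 0.09 at 18 h alone and 8.36 ± 0.14 at 18 h mix. Uty and Kdm5d followed the same order, with means in TN alone of 4.47 and 5.36 at 0 h and 6.88 and 7.61 at 18 h. The autosomal gene Kcnma1, a potassium channel, also differed among the TN arrays, with means of 12.66 at 0 h, 11.56 at 96 h alone and 12.45 at 96 h mix but 6.46 and 6.29 at 18 h alone and mix. It did not follow the Y-linked transcripts in every group, since in TN at 96 h mix Eif2s3y averaged 7.64 ± 0.28 (SD, n = 3) while Kcnma1 was high. The TN arrays at 18 h thus did not read as female cells alone, since each carried Y-linked transcripts beside Xist. They are therefore not taken here as a group of known sex, and whether they held cells of both sexes was not tested. Sex-linked transcripts and cell type cannot be told apart at 18 h, and the part of sex in the autosomal differences was not tested. Every comparison with 0 h or 96 h below also compares TN arrays that differ in Y-linked transcripts and Kcnma1.

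**Figure D1:**
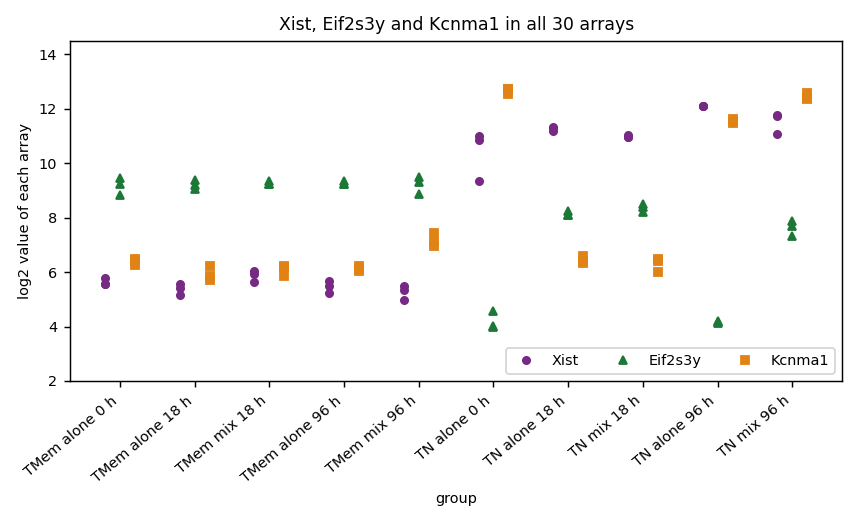
Log2 values (vertical axis) of Xist, Eif2s3y and Kcnma1 in each of the 30 arrays, by group (horizontal axis), 1 point an array. In the TN groups Xist was high throughout, while Eif2s3y was high at 18 h (means of 8.14 alone and 8.36 mix) and low at 0 h and 96 h alone (4.19 and 4.17). Kcnma1 was low at 18 h and high at 0 h and 96 h, also in the TN arrays at 96 h mix, where Eif2s3y averaged 7.64.

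The difference between TMem and TN at 18 h spread widely over the transcriptome. TMem carried more transcripts of cytokines (Il3, Csf2, Ccl1), of mitosis and DNA synthesis (Bub1, Ccna2, Rrm2), of metallothionein (Mt2) and of the inhibitory receptor Havcr2, known as TIM-3. TN carried more transcripts of interferon-induced genes (Ifi209, Gbp4), of the naive-cell factor Klf3 and of several transporters. Of 19103 autosomal genes 5570 were called (29.2%), 2975 higher in TMem (15.6%) and 2595 lower (13.6%). Which direction held more genes depended on the scaling, with 2686 higher and 2806 lower when each array was centred on its median and 2841 and 2951 after quantile normalization. With values as deposited, 630 of all autosomal genes (3.3%) were called higher by at least 1 and 460 (2.41%) lower by at least 1. The groups did not overlap for 8772 genes (45.9%). The median difference over all autosomal genes was -0.04. For comparison, the X chromosome had 173 of 739 genes called (23.4%). Leaving out any 1 of the 6 arrays gave 4799 to 5037 calls. Other fits gave more, up to 7418 with array weights (3748 higher and 3670 lower). The shares of 15.6% higher and 13.6% lower are the measure for each count of list members called at 18 h alone below. They also count genes near background, 3863 in TMem and 4043 in TN, of which most lists hold few. With low values left out, 11171 genes over all chromosomes were kept, and 2996 autosomal genes were called higher and 2474 lower. Shares among the genes kept were thus larger, which a list count beside 15.6% and 13.6% does not show.

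**Figure D2:**
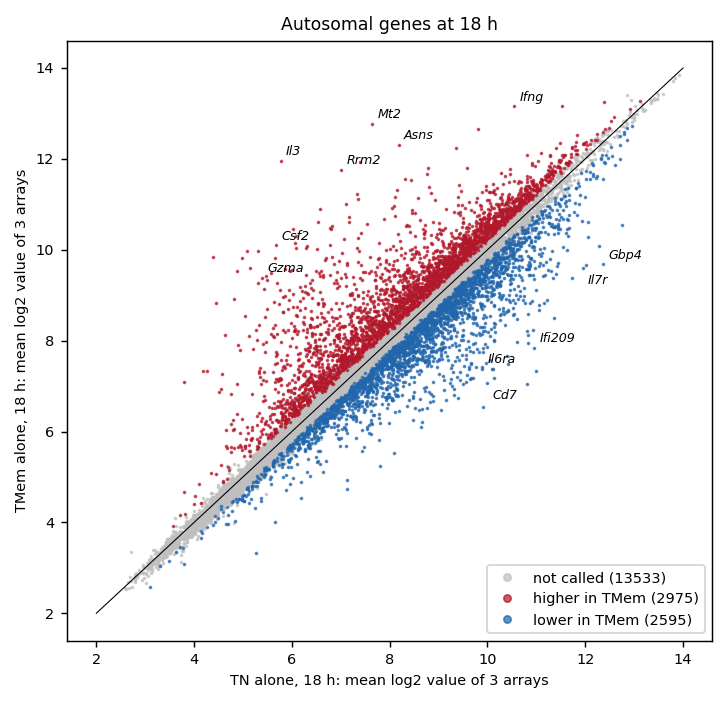
Mean log2 value of 3 TN arrays (horizontal axis) against 3 TMem arrays (vertical axis) at 18 h alone, 1 point for each autosomal gene, with the line of equality. The 2975 genes higher in TMem (red) reach farther from the line than the 2595 lower ones (blue), with Il3 6.19 above it and Ifi209 at a difference of -3.12.

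Cytokine genes held the largest difference of all autosomal genes. Il3, a growth factor for blood progenitors and mast cells that activated T cells secrete, read 11.86, 12.03 and 12.00 in TMem and 5.76, 5.91 and 5.65 in TN. The groups lay far apart, with the TN mean just above the near-background mark, and the difference was 6.19 (SE 0.41, adjusted p = 7.46e-13). Csf2, which encodes GM-CSF, read 9.99, 10.22 and 10.10 in TMem and 5.83, 5.51 and 5.72 in TN, a difference of at least 4.42 (SE 0.31, adjusted p = 3.41e-12). Both genes were near the floor of the arrays in TN and well above it in TMem. Ifng, the main macrophage-activating cytokine of CD8+ T cells, read 13.14, 13.16 and 13.16 in TMem and 10.39, 10.74 and 10.51 in TN. It was high in both groups without overlap, and the difference was 2.61 (SE 0.45, adjusted p = 2.95e-05, and 3.3e-17 to 3.06e-04 over the alternatives). Il2, the T cell growth factor, read 9.97, 9.98 and 9.98 in TMem and 7.30, 7.51 and 7.33 in TN, a difference of 2.60 (SE 0.17, adjusted p = 7.19e-13). Tnf, by contrast, was close between groups at 11.29, 11.42 and 11.49 in TMem and 10.83, 10.94 and 11.11 in TN. Its difference was 0.44 (SE 0.15, adjusted p = 0.0236), and the call was lost without TMem replicate 2 or 3 or TN replicate 1 or 2 and with each array centred on its median (adjusted p 2.92e-04 to 0.107 over the alternatives).

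Of 23 measured cytokine genes 14 were higher and 1 lower, against 15.6% and 13.6% of autosomal genes, with a median of 0.81. The other members with large differences were Il24 (4.08), a cytokine of the IL-10 family, Il9 (3.74), Fasl (2.64), which kills cells that bear Fas, and Tnfsf11 (2.56), which encodes RANKL. Smaller differences were those of Il13 (1.11), Il10 (at least 1.03), Osm (0.81), Tgfb1 (0.81) and Lta (0.58). Ltb, which forms lymphotoxin with Lta and is made by resting lymphocytes, was the 1 member lower in TMem, at -1.73. Members not called included Il4, Il5, Il6, Il17a and Il21. Il1a and Penk were outside the list and among the largest differences. Il1a, an inflammatory cytokine, read 8.78, 8.87 and 8.84 in TMem and 4.46, 4.62 and 4.28 in TN, and its difference was at least 4.37 (SE 0.12, adjusted p = 7.14e-21). Its TN values stood no higher at 18 h than at 0 h (TN mean 4.64 at 0 h). Penk, the precursor of enkephalin peptides, differed by 4.44 (SE 0.25, adjusted p = 2.18e-14).

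Among chemokines, which draw other leukocytes, 4 of 13 were higher and 2 lower (median 0.13), against 15.6% and 13.6% of autosomal genes. Ccl1, the ligand of CCR8, read 11.81, 12.01 and 11.95 in TMem and 7.35, 7.40 and 7.45 in TN, and the difference of 4.53 (SE 0.30, adjusted p = 8.99e-13) separated every TMem from every TN array. The others higher were Ccl9 (2.63), Ccl5 (2.22) and Ccl4 (1.16). Those lower were the interferon-induced ligands of CXCR3, Cxcl10 (-1.49) and Cxcl9 (-0.49). Ccl3 and Xcl1 were high in both groups, with means of 13.40 and 12.84 for Ccl3. Their differences of 0.56 (95% interval -0.15 to 1.27) and 0.35 (-0.19 to 0.88) were not called. Of 13 chemokine receptors, Ccr2 (at least 2.97), Cxcr3 (1.76), Cxcr6 (1.30) and Ccr4 (1.22) were higher. Ccr9 (-1.29), a gut-homing receptor, and Cxcr4 (-1.01) were lower.

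**Figure D3:**
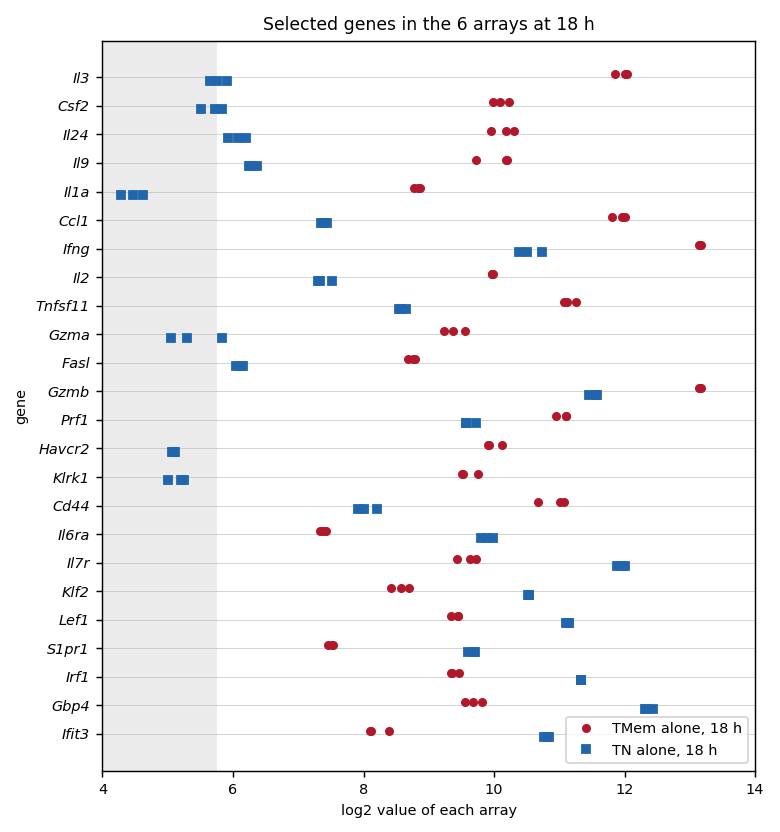
Log2 value of each array (horizontal axis) for 24 genes (vertical axis), 3 TMem arrays as circles and 3 TN arrays as squares, at 18 h alone. The grey band is the range below 5.74, the near-background mark of the TN group. In each of the 24 genes, which were selected for display, the groups do not overlap, as for 45.9% of autosomal genes. The 16 genes from Il3 to Cd44 were higher in TMem, and the 8 from Il6ra to Ifit3 were lower.

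Genes of the cytotoxic granule were higher in TMem, though Gzmb was abundant in both groups. Gzma, a trypsin-like granule protease, read 9.24, 9.56 and 9.37 in TMem and 5.84, 5.29 and 5.05 in TN, and the difference was at least 3.99 (SE 0.21, adjusted p = 4.38e-15). Gzmb, the aspartate-cutting protease that starts apoptosis in targets, read 13.17, 13.15 and 13.14 in TMem and 11.45, 11.58 and 11.56 in TN. Its TN values had already reached the upper range of the arrays, and the difference was 1.62 (SE 0.08, adjusted p = 2.00e-15). Prf1, the pore-forming protein, read 11.10, 10.95 and 11.10 in TMem and 9.56, 9.72 and 9.57 in TN, a difference of 1.43 (SE 0.14, adjusted p = 5.16e-09) with no overlap. Of 22 measured granule and cytotoxicity genes 14 were higher and 1 lower, and the median was 1.07. The serpins that protect cells from leaked granzymes were among the highest, Serpinb9 (2.89), Serpinb9b (2.88), Serpinb6b (2.86) and Serpinb6a (2.23). Gzmd (at least 2.37), Gzmc (1.76), Gzme (1.70) and Gzmk (0.90) were higher, and Ctsw (-0.34), a cathepsin of cytotoxic cells, was lower. Gzmg (0.37) lost its call without TMem replicate 2 or TN replicate 2. Granzymes C to G, the serpins, the Klr receptors, the Ifi200 genes, the guanylate-binding proteins and the histones are families of near-identical copies, and the array probes may read more than 1 of them.

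Receptors shared with natural killer cells moved in both directions. Klrk1, which encodes the activating receptor NKG2D, averaged 9.59 ± 0.13 (SD, n = 3) in TMem and 5.15 ± 0.13 in TN, a difference of at least 4.44 (SE 0.30, adjusted p = 9.85e-13) from a level near background in TN. Of 14 such receptors 7 were higher and 3 lower, with Klrc1 (4.22), Klra5 (at least 3.29), Klrc2 (at least 2.06) and Klra3 (at least 1.23) higher. Cd7, a receptor of the immunoglobulin family on T and NK cells, read 6.87, 7.09 and 7.27 in TMem and 9.92, 10.03 and 10.01 in TN and was lower at -2.91 (SE 0.18, adjusted p = 3.04e-13). Hcst (-0.90), the adaptor through which NKG2D signals, and Klrd1 (-0.55), the partner of the NKG2 chains, were lower too. Of 10 NK cell markers, 4 were higher (Eomes, Gzma, Cd244a and Klri2) and 0 lower. The mean over that list was 6.43 to 6.56 in the TMem arrays and 5.73 to 5.84 in the TN arrays. The NK-defining Ncr1 and Klrb1c were not called, at -0.29 and -0.18.

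Transcription factors of naive T cells were lower in TMem as a group. Klf2, which drives the genes of lymph node circulation, read 8.58, 8.70 and 8.42 in TMem and 10.54, 10.52 and 10.54 in TN, a difference of -1.97 (SE 0.13, adjusted p = 7.05e-13). Lef1, a partner of beta-catenin kept on in naive and stem-like T cells, read 9.45, 9.35 and 9.45 in TMem and 11.11, 11.15 and 11.15 in TN, a difference of -1.72 (SE 0.09, adjusted p = 6.41e-15). Neither gene overlapped between groups. Of 15 measured factors 1 was higher and 13 lower, with a median of -1.16. The lower ones included Klf3 (-2.70), Bach2 (-1.42), which holds back effector genes, Bcl11b (-1.37), Ets1 (-1.35), Id3 (-1.25) and Foxo1 (-1.16). Myb (0.65) was the member higher in TMem, and Sox4 was not called (-0.05). Tcf7 was not analysed here.

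Surface receptors that keep naive cells alive and in circulation followed the same direction. Il7r, the receptor chain for the survival cytokine IL-7, read 9.64, 9.43 and 9.73 in TMem and 11.88, 11.96 and 12.00 in TN, a difference of -2.35 (SE 0.16, adjusted p = 1.43e-12). S1pr1, the receptor that lets T cells leave lymph nodes, read 7.52, 7.45 and 7.53 in TMem and 9.69, 9.71 and 9.60 in TN, a difference of -2.16 (SE 0.08, adjusted p = 7.93e-18). Of 15 members 0 were higher and 14 lower, and the median was -1.63. Besides Il7r the largest were Cd55 (-2.55), which limits complement, Il6ra (-2.51), Actn1 (-2.27), Itga4 (-2.24) and Igfbp4 (-2.17). Ccr7, the lymph node homing receptor, was the exception. It read 12.60, 12.62 and 12.65 in TMem and 12.35, 12.50 and 12.48 in TN, and its difference of 0.18 (95% interval -0.07 to 0.43) was not called here, though it was without the 0 h arrays (adjusted p 0.0424 to 0.581 over the alternatives). Cd44, the receptor by which memory cells are commonly recognised, moved the other way, at 10.92 ± 0.21 (SD, n = 3) in TMem and 8.05 ± 0.15 in TN, a difference of 2.87 (SE 0.23, adjusted p = 4.24e-11).

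Effector and memory transcription factors were mixed. Of 20 measured, 10 were higher and 4 lower, with a median of 0.31. The higher members included Zbtb32 (3.23), Zeb2 (2.16), which works with T-bet in terminal effector cells, Bhlhe40 (1.57) and Eomes (1.42). Eomes, a T-box factor of effector and memory cells, read 10.85, 10.78 and 10.83 in TMem and 9.29, 9.37 and 9.54 in TN. Its close relative Tbx21, which encodes T-bet, overlapped between groups at 10.72, 10.61 and 10.65 in TMem and 10.72, 10.77 and 10.72 in TN, and the difference was -0.08 (95% interval -0.37 to 0.22, adjusted p = 0.77). Irf4, which scales with receptor signal strength, read 11.68, 11.57 and 11.70 in TMem and 11.58, 11.72 and 11.64 in TN, and its difference was not called (95% interval -0.24 to 0.25). The lower members were Tox (-2.10), Bcl6 (-1.71), Ikzf3 (-1.26) and Runx3 (-0.60).

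Genes of the receptor complex were slightly lower in TMem. Of 14 members 2 were higher and 10 lower, with a median of -0.65. Trat1 (-1.43), Cd247 (-0.95), Cd3e (-0.73), Cd3d (-0.68) and Zap70 (-0.63) were lower, and Cd6 (0.53) and Thy1 (0.35) were higher. Ptprc, whose alleles differ by design between the groups, read 11.69, 11.41 and 11.60 in TMem and 12.36, 12.35 and 12.39 in TN, a difference of -0.80 (SE 0.16, adjusted p = 2.77e-04), and probes can read alleles unequally. Among the 100 genes nearest Ptprc, 50 on each side, 20 were higher and 12 lower, against 15.6% and 13.6% of autosomal genes. By at least 1, 7 were higher and 1 lower, against 3.3% and 2.41%. The median was -0.04, which does not show differences that go both ways. The part of a congenic segment in the differences was not tested. Immediate targets of receptor signalling were split, with 5 of 21 higher and 7 lower. Nfatc1 (-0.91) and Egr1 (-0.45) were lower and Ier3 (1.39) and Spry2 (0.92) higher. In the AP-1 family, Batf3 (1.36), Atf3 (1.27), Fosb (0.91) and Junb (0.52) were higher of 12 members, and 0 were lower.

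Activation markers at the surface were higher in 8 and lower in 1 of 14 members. Besides Cd44 they were led by Cd24a (1.86), Cd83 (1.54), Cd200 (1.39) and Tfrc (1.34), the transferrin receptor of growing cells. Il2ra, the high-affinity chain of the IL-2 receptor, read 12.92, 12.76 and 12.80 in TMem and 12.49, 12.54 and 12.57 in TN, a difference of only 0.29 (SE 0.08, adjusted p = 0.00517). Cd69 (-0.69), an early activation marker that holds cells in tissue, was lower. Among 21 cytokine receptors and their SOCS inhibitors 5 were higher and 9 lower. The lower ones included Il6st (-2.03), the signalling chain for IL-6, Tgfbr2 (-1.07) and both chains of the interferon gamma receptor, Ifngr2 (-1.75) and Ifngr1 (-0.65). Il18rap (2.28), Il1r2 (at least 1.35), Il10ra (1.16) and Socs2 (1.05) were higher.

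Inhibitory receptors did not move together. Havcr2, an inhibitory receptor of effector and exhausted T cells, read 9.92, 9.91 and 10.12 in TMem and 5.06, 5.09 and 5.11 in TN, a difference of at least 4.89 (SE 0.26, adjusted p = 1.18e-14). Pdcd1, which encodes PD-1, was lower in TMem at 9.65, 9.88 and 9.98 in TMem and 10.42, 10.48 and 10.37 in TN, a difference of -0.58 (SE 0.11, adjusted p = 1.58e-04). Neither gene overlapped between groups, and the directions were opposite. Of 15 members 4 were higher and 6 lower, with Tigit (2.18) and Entpd1 (at least 1.26) higher and Cd274 (-1.23), Ctla4 (-0.75) and Btla (-0.49) lower. Lag3 was not called (0.01, 95% interval -0.15 to 0.18). Of 19 costimulatory receptors and TNF family ligands 10 were higher and 6 lower. Cd80 (at least 2.45), Tnfrsf8 (2.20), Tnfrsf4 (2.13) (OX40) and its ligand Tnfsf4 (1.97) were higher, and Slamf6 (-1.48), Slamf1 (-1.33) and Cd28 (-0.90) were lower. Among 22 adhesion genes 11 were higher and 4 lower. They ranged from Lgals3 (3.89), Anxa2 (3.71) and Lgals1 (1.85) down to Itgae (-1.88), the CD103 chain that binds E-cadherin.

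Interferon-induced genes were lower in TMem. Type I interferons induce antiviral genes through the interferon-stimulated response element in their promoters. Interferon gamma induces Irf1 and the guanylate-binding proteins. For a member of each list, the 250 bases before the start site (RefSeq, GRCm38.p6, plus strand for both) are shown because the element, searched as GAAA, any 2 bases and GAAA on both strands, is in them. Capitals mark each match, here on the opposite strand. The Ifit3 window is chr19:34583279-34583528 with 2 matches, 156 and 122 bases before the start, and the Gbp7 window is chr3:142530086-142530335 with 1 match, 53 bases before it.
Ifit3: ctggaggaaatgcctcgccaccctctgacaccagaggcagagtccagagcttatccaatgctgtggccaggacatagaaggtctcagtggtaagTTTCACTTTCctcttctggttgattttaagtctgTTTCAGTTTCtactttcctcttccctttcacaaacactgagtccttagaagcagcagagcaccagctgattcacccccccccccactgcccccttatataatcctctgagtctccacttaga
Gbp7: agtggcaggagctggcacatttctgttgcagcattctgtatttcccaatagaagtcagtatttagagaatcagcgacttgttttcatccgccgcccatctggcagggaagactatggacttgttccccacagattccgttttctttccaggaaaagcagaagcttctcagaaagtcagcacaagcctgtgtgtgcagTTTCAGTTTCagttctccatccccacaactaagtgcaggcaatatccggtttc
The element was found in 8 of the 22 windows of type I list members (36.4%) and in 6 of the 13 windows of interferon gamma list members (46.2%), against 2.98% of all 32851 windows. The gamma-activated site, searched as TTCNNNGAA, was in 3 of those 13 (23.1%) against 7.02% of all windows. A match describes these letters and is not shown to be a working site.

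Ifit3, which binds viral RNA complexes, read 8.12, 8.10 and 8.40 in TMem and 10.76, 10.84 and 10.83 in TN. All 3 TMem values lay below all TN values, and the difference was -2.60 (SE 0.18, adjusted p = 2.28e-12). Irf1, the factor that carries the interferon gamma response forward, read 9.35, 9.47 and 9.35 in TMem and 11.33, 11.33 and 11.33 in TN, a difference of -1.94 (SE 0.16, adjusted p = 1.31e-10). Gbp4, a GTPase of host defence, read 9.68, 9.56 and 9.82 in TMem and 12.33, 12.32 and 12.43 in TN, a difference of -2.68 (SE 0.18, adjusted p = 2.01e-12), and Gbp7 read 8.74, 8.87 and 8.90 in TMem and 10.98, 11.26 and 11.21 in TN, a difference of -2.31 (SE 0.29, adjusted p = 2.25e-07). In none of these did the groups overlap. Of 23 type I response genes 0 were higher and 21 lower in TMem (median -1.09), with Bst2 (-0.11) and Mx1 (-0.07) not called. They included Rtp4 (-2.34), Ifit1 (-2.15), Zbp1 (-2.03), Oasl2 (-1.94), Irf7 (-1.83) and Stat2 (-1.09). Of 18 interferon gamma response genes 0 were higher and 16 lower (median -1.39), with Iigp1 (-2.51), Irgm1 (-1.76), Nlrc5 (-1.30) and Tap1 (-0.99) among them. The Ifi200 family, DNA sensors on chromosome 1, gave 3 of the 14 largest falls named, Ifi209 (-3.12), Ifi214 (-2.94) and Ifi213 (-2.70), and Gbp8 (-2.87) and Gbp9 (-2.69) gave more. The immunoproteasome subunits Psmb10 (-0.88), Psmb9 (-0.76) and Psmb8 (-0.45) and the activator Psme1 (-0.81) were the 4 proteasome genes lower in TMem, while 8 of 31 were higher. Transcripts of Ifng itself were higher in TMem, as given above, and those of its receptor chains were lower.

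Genes of cell division were higher in TMem, for every measured member of both lists below. Before mitosis, many of their promoters are known to be driven through CCAAT boxes bound by NF-Y. The window of Ccnb2, a cyclin of G2 and M phase, is shown because it holds 3 such boxes (CCAAT, both strands searched) between 87 and 21 bases before the start. It is chr9:70421555-70421804, minus strand (RefSeq, GRCm38.p6), with the matches in capitals.
Ccnb2: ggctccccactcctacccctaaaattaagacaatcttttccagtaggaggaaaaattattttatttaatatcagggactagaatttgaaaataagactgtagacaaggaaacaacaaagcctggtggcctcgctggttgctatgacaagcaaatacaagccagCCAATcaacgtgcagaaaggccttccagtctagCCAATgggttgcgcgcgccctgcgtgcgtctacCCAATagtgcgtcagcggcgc
CCAAT was in 21 of 25 windows of mitosis genes (84.0%), against 33.8% of all windows, and TTTGAA, the cell cycle genes homology region, in 8 of 25 (32.0%) against 16.0%. TTTNNCGC, an E2F site, was in 8 of 32 windows of S phase genes (25%) against 4.28%.

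Ccnb2 read 10.68, 10.82 and 10.69 in TMem and 7.13, 7.32 and 7.07 in TN, a difference of 3.55 (SE 0.08, adjusted p = 6.39e-23). Mki67, the protein by which dividing cells are stained, read 10.28, 9.62 and 10.20 in TMem and 6.20, 6.05 and 6.01 in TN, a difference of 3.95 (SE 0.27, adjusted p = 1.30e-12). Rrm2, the subunit that limits deoxynucleotide supply in S phase, read 11.89, 11.55 and 11.85 in TMem and 6.98, 6.83 and 7.23 in TN, a difference of 4.75 (SE 0.10, adjusted p = 6.39e-23). In each of these genes the lowest TMem array lay far above the highest TN array. All 28 of 28 mitosis genes were higher (median 2.86), led by Bub1 (at least 4.65) and Ccna2 (4.34), and so were 32 of 32 S phase genes (median 1.42). The mean over the mitosis list was 9.12 to 9.24 in the TMem arrays and 6.30 to 6.35 in the TN arrays. In these bulk samples more dividing cells and more transcript per cell cannot be told apart. Of 25 regulators of the G1 phase 12 were higher and 7 lower. Ccne2 (3.35), Ccne1 (2.18), E2f3 (2.24), E2f1 (1.90) and Cdk2 (1.35) were higher, and Cdkn1b (-1.61), the p27 inhibitor of resting cells, was lower. Myc was close between groups at 12.77, 12.48 and 12.66 in TMem and 12.51, 12.54 and 12.52 in TN (difference 0.11, 95% interval -0.10 to 0.33, not called). Among histone genes H2ac4 read 9.72, 9.97 and 9.81 in TMem and 4.92, 4.05 and 4.21 in TN, a difference of at least 5.44 (SE 0.30, adjusted p = 2.01e-14).

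Metabolic gene groups were mostly higher in TMem. Of 17 glycolysis and glucose transport genes 16 were higher and 0 lower (median 0.66), with Slc16a3 (1.97), a lactate exporter, Hk2 (1.58) and Tpi1 (1.52) the largest. Hk2, which traps glucose in the cell, averaged 9.66 ± 0.09 (SD, n = 3) in TMem and 8.07 ± 0.10 in TN. Of 18 genes of the hypoxia response 12 were higher and 2 lower, with Ak4 (3.08), Bnip3 (2.92) and Vegfa (1.20) higher. Of 19 cholesterol genes 15 were higher and 0 lower (median 0.83), with Msmo1 (1.44), Sqle (1.40), Idi1 (1.39) and Hmgcs1 (1.10). The sterol regulatory element, searched as TCACNCCAC on both strands, was in 1 of 18 windows of that list (5.56%, in Hmgcs1), against 1.05% of all windows. Scd1, which makes monounsaturated fatty acids, read 9.87, 9.70 and 9.87 in TMem and 4.80, 5.12 and 5.02 in TN, a difference of at least 4.83 (SE 0.35, adjusted p = 5.03e-12). In the fatty acid synthesis list 9 of 12 were higher, Scd2 (3.10) and Fads2 (2.95) among them, and Elovl5 (-0.34) was lower. Fatty acid oxidation was nearly even (2 higher and 2 lower of 16, median 0.07).

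Amino acid supply is governed by ATF4, which binds the amino acid response element. The window of Asns, which makes asparagine, is shown because the element (TGATGNAA, both strands searched) occurs once in it, 23 bases before the start. It is chr6:7693210-7693459, minus strand (RefSeq, GRCm38.p6), with the match in capitals.
Asns: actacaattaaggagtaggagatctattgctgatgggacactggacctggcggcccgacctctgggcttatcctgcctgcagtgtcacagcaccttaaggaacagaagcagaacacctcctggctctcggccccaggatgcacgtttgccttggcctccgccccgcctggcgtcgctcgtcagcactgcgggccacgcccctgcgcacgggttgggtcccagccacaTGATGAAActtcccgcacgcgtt
These letters were in 4 of 21 windows of list members (19.0%), against 3.45% of all windows.

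Asns read 12.29, 12.34 and 12.32 in TMem and 8.24, 8.15 and 8.15 in TN, a difference of 4.13 (SE 0.29, adjusted p = 3.30e-12). Of 23 ATF4 targets and amino acid genes 19 were higher and 0 lower (median 0.58), with Cth (3.57), which makes cysteine, Slc7a3 (2.38), Slc7a11 (at least 1.47) and Sesn2 (1.30). Ddit3 (0.15) was not called. Of 20 unfolded protein response genes 15 were higher and 0 lower (median 0.43), with Creld2 (1.22), Pdia6 (0.84) and Hyou1 (0.80). In ribosome assembly 13 of 29 were higher and 0 lower (median 0.27). Respiratory chain genes were higher in 7 of 33 and lower in 0 (median 0.19), a share near that of all autosomal genes, and the number called ran from 2 to 12 over the alternatives. Cox5a, Cyc1, Atp5a1 and Sdha each lost the call without at least 1 of the 6 arrays. Ribosomal proteins were lower in 5 of 26 and higher in 0 (median -0.13), against 13.6% and 15.6% of autosomal genes. Of the genes lower there, Rpl13, Rps14, Rps18 and Rpl38 each lost the call without at least 1 of the 6 arrays.

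The zinc-binding metallothioneins stood out among single genes. Mt2 read 12.70, 12.80 and 12.82 in TMem and 7.72, 7.61 and 7.57 in TN, a difference of 5.14 (SE 0.27, adjusted p = 5.98e-15), and Mt1 (3.78) was also higher. Zinc importers Slc39a8 (1.20) and Slc39a6 (0.91) were higher, and Slc30a4 (-0.64) lost its call when any 1 of the 6 arrays was left out. Survival genes were mixed. The counts that follow stand beside 15.6% of autosomal genes higher and 13.6% lower. Of 11 BCL2 family members 2 were higher and 4 lower, with Bcl2l1 (1.04), which encodes BCL-XL, and Bak1 (0.51) higher and Bcl2 (-1.08), Bcl2l11 (-0.90) and Mcl1 (-0.68) lower. Of 11 death receptor genes 2 were higher and 3 lower, Fasl (2.64) and Tnfrsf10b (0.91) against Ripk3 (-0.51), Casp8 (-0.32) and Tnfrsf1a (-0.23). Tnfrsf1a lost its call with the replicate block and without TMem replicate 1 or 2 or any 1 TN replicate (adjusted p 0.00793 to 0.204 over the alternatives). Fas itself was not called (-0.24, 95% interval -0.66 to 0.17). Among 14 p53 targets 5 were higher and 2 lower, with Perp (3.65) the largest and Trp53inp1 (-1.84) the lowest. Ttc39c (at least 4.68) was also among the 14 largest rises.

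Among the genes named, the largest fall outside these groups was Slc28a2b, a nucleoside transporter. It read 7.13, 7.32 and 7.52 in TMem and 10.94, 10.93 and 11.13 in TN, a difference of -3.67 (SE 0.19, adjusted p = 5.16e-15). The lowest difference over all autosomal genes, unnamed loci included, was -3.75. Slc6a19, a transporter of neutral amino acids, differed by -3.36 (SE 0.20, adjusted p = 1.18e-13). Others were Tmem71 (-2.96), Cmah (-2.88), which makes a form of sialic acid, Tnfrsf26 (-2.75) and Ripor2 (-2.73). In each the lowest TN array was above the highest TMem array, which the rule for naming the largest falls required.

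**Figure D4:**
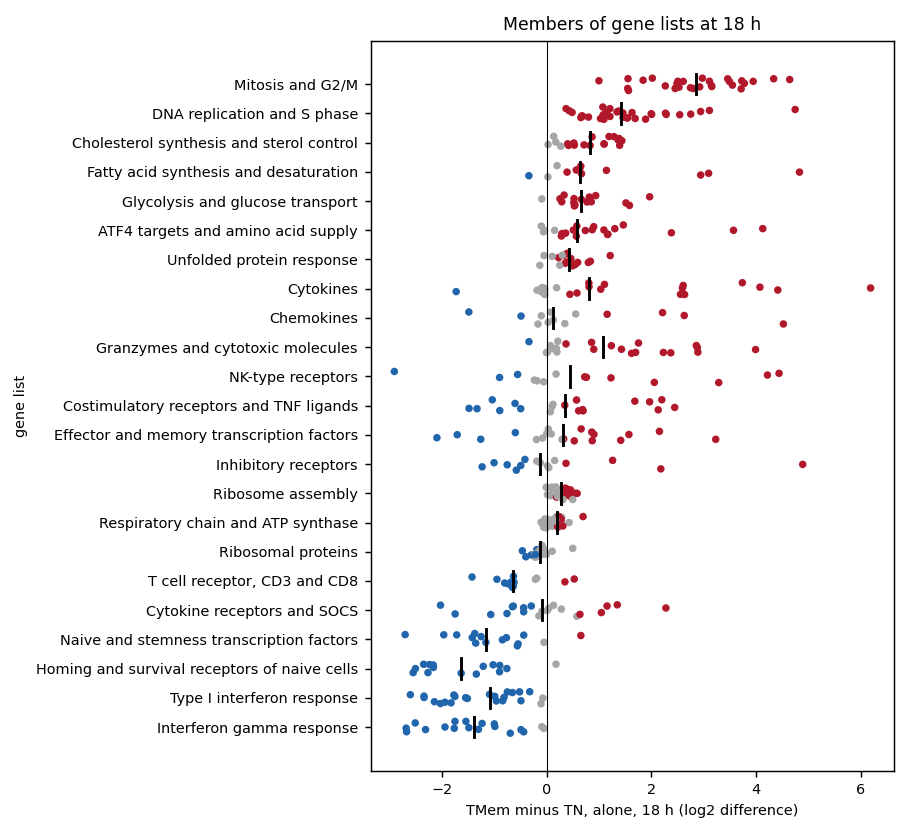
TMem minus TN difference at 18 h alone (log2, horizontal axis) for the measured members of 23 gene lists (vertical axis), 1 point a gene, red if called higher, blue if called lower and grey if not called, with a black bar at the list's median. The mitosis list lies wholly to the right (median 2.86) and the naive-cell and interferon lists mostly to the left (medians of -1.16, -1.63, -1.09 and -1.39), against a median of -0.04 over all autosomal genes.

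Markers of most other cell types were low and close between groups. Of 24 markers of macrophages, dendritic cells and neutrophils 1 was higher (Itgax) and 1 lower (Lyz2), and 9 were near background in each group. Both calls were lost without at least 1 of the 6 arrays. The list mean was 5.85 to 5.97 in TMem arrays and 5.92 to 6.00 in TN arrays. Of 15 B cell and MHC class II genes 2 were higher and 2 lower, with list means of 6.64 to 6.80 and 6.83 to 6.88. These counts are near the 15.6% and 13.6% of autosomal genes. Cd74 (0.59) and H2-Ab1 (0.54) were higher, and H2-Ab1 lost its call without TMem replicate 2. H2-DMa (-1.75) and Cd37 (-0.82) were lower. The B cell genes Cd79a (0.18), Ms4a1 (-0.03) and Pax5 (0.03) were not called. Mast cell and basophil markers had 0 higher and 1 lower (Kit (-0.40)) of 13, with list means of 5.66 to 5.76 and 5.74 to 5.83. CD4 and regulatory T cell markers had 4 higher and 3 lower of 13, with Tnfrsf4 (2.13), Lrrc32 (0.88), Zbtb7b (0.57) and Il2ra (0.29) higher, Gpr83 (-2.46), Izumo1r (-1.91) and Ctla4 (-0.75) lower and Foxp3 not called (-0.51). Of 5 measured markers of gamma delta T cells 0 were called, and of 10 erythroid and platelet genes 0 were higher and 2 lower (Gata1 and Itga2b, both lost without at least 1 array). Genes known to respond to cell handling were higher in 6 of 13 and lower in 0 (median 0.25). The part of these cells and of handling in the differences above was not tested.

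The gap between the cell types at 18 h was then set against the gap before stimulation, which used other arrays. The 0 h arrays were uneven, with array weights of 0.1118, 0.6128 and 4.658 in TN and 2.035, 0.235 and 0.2815 in TMem. A low weight marks an array that departs from its group. Mast cell and basophil markers were 5 of 13 higher and 0 lower in TMem at 0 h, and Cpa3 differed by 3.25. Erythroid and platelet genes gave 4 higher and 2 lower of 10, both against 18.6% and 17.5% of autosomal genes. The part of such cells was not tested. At 0 h 6897 genes were called (36.1%). Of the 2975 genes higher in TMem at 18 h, 1585 were also higher at 0 h (53.3% of the first list, 44.5% of the second) and 306 were lower. Of the 2595 lower at 18 h, 1144 were lower at 0 h (44.1% and 34.3%) and 493 were higher (19.0%). A test of the difference between the gaps called 5560 genes (29.1%), 2719 more positive at 18 h and 2841 more negative, or 3238 and 2257 with each array centred on its median. These gaps also carry the change of Kcnma1 and of Y-linked transcripts among the TN arrays described above, whose part was not tested. Changes in gap are given as measured, and where a mean was near background they are no bounds.

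The effector genes that separated the cell types before stimulation included some with far smaller gaps at 18 h. Gzmb had a gap of 5.85 at 0 h and 1.62 at 18 h, a change of -4.23 (SE 0.11, adjusted p = 3.47e-20). Within TN, Gzmb went from a mean of 6.93 to 11.53, and within TMem from 12.78 to 13.15. Il2ra had gaps of 4.42 and 0.29, and Tbx21 of 2.81 and -0.08, changes of -4.13 (SE 0.11, adjusted p = 3.47e-20) and -2.88 (SE 0.20, adjusted p = 1.93e-11). Il12rb2, a chain of the IL-12 receptor, changed by -3.56 (SE 0.16, adjusted p = 4.25e-15). In each of these the TN mean at 18 h lay nearer the TMem mean than at 0 h.

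Other genes had a larger gap after stimulation, by the test of the change in gap. Il3 was near background in both cell types at 0 h, with means of 5.53 in TMem and 4.49 in TN, and its gap as measured changed by 5.15 (SE 0.57, adjusted p = 7.30e-08). Csf2, near background in TN at 18 h, changed by 3.83 (SE 0.44, adjusted p = 1.26e-07) as measured, and Il1a, near background in both at 0 h and in TN at 18 h, by 4.43 (SE 0.17, adjusted p = 9.63e-17). TMem means at 0 h and 18 h were 6.29 and 10.10 for Csf2, against 5.70 and 5.68 in TN. Ifng had gaps of 2.77 at 0 h and 2.61 at 18 h, and the change of -0.16 (95% interval -1.45 to 1.13) was not called. Rgs2, which limits G protein signals, changed by 4.39 (SE 0.19, adjusted p = 1.91e-15). Idi2, of the isoprenoid pathway, changed by 4.05 (SE 0.19, adjusted p = 1.14e-14) as measured, with both cell types near background at 0 h and TN at 18 h.

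The interferon gamma response turned its direction between the times. At 0 h 12 of 18 members were higher in TMem and 0 lower (median 0.49), against 18.6% and 17.5% of autosomal genes, and at 18 h 0 and 16. The change in gap was negative and called for 16 of 18 (median -1.76), against 14.9% of autosomal genes. Gbp4 had gaps of 0.70 and -2.68, a change of -3.37 (SE 0.26, adjusted p = 9.67e-11). Its TN mean went from 10.82 to 12.36 and its TMem mean from 11.51 to 9.68. Iigp1 changed by -4.27 (SE 0.38, adjusted p = 1.46e-09) and Gbp7 by -3.57 (SE 0.41, adjusted p = 1.17e-07). The type I list did not turn, since 14 of 23 members were already lower at 0 h and 2 higher (median -0.45). Its change in gap was negative and called for 12 of 23. Mitosis genes were 28 of 28 higher at 0 h too (median 3.93), and the gap narrowed for 23 of them by 18 h. Naive-cell transcription factors had 3 higher and 6 lower at 0 h (median -0.13), and the gap became more negative for 12 of 15. Ribosomal proteins, lower in 22 of 26 at 0 h (median -0.56), had a more positive gap at 18 h for 17.

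**Figure D5:**
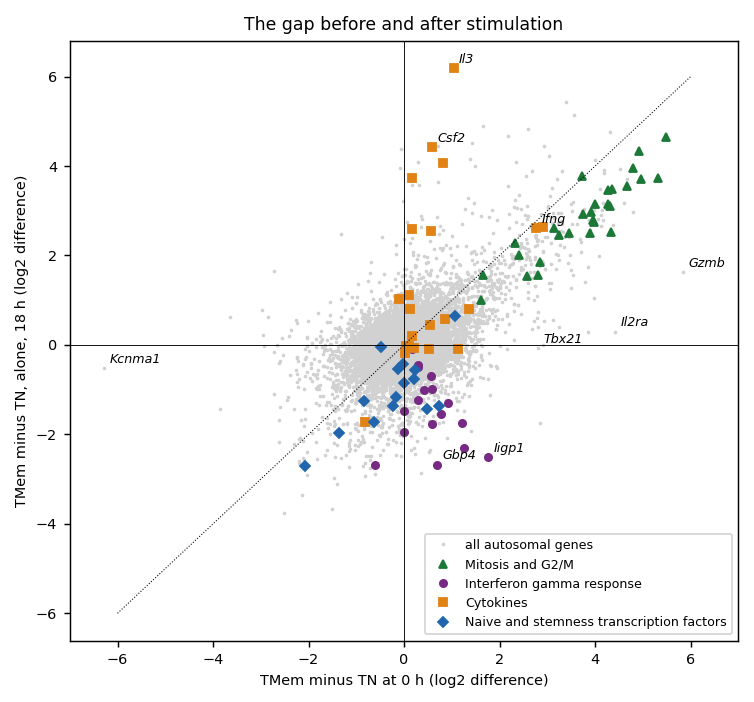
TMem minus TN difference at 0 h (horizontal axis, log2) against that at 18 h alone (vertical axis, log2), 1 point for each autosomal gene, with 4 lists marked and a dotted line of equality. Il3 and Csf2 rise far above the line, Gzmb, Il2ra and Tbx21 lie below it at the right, and interferon gamma response genes lie under 0 at 18 h, most of them to the right of 0 at 0 h.

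Where both cell types had shared a culture for 18 h, the gap between them was called for fewer genes, 3946 (20.7%), 2285 higher in TMem (12.0%) and 1661 lower (8.69%). Of the 2975 genes higher in TMem alone, 1780 were also higher in the mix comparison (59.8%, and 77.9% of that list), and of the 2595 lower 1133 were (43.7% and 68.2%). The difference between the gaps itself was called for 1012 genes (5.3%), 281 more positive alone (1.47%) and 731 more negative (3.83%), although the 1012 calls became 721 to 883 when 1 array was left out and larger in other fits. With each array centred on its median the split was 448 more positive and 403 more negative. Cd83 had a gap of 1.54 alone and -0.29 in the mix, a difference of 1.83 (SE 0.18, adjusted p = 2.00e-07). Tnfsf4 differed by 1.85 (SE 0.18, adjusted p = 1.48e-07) and Serpinb9 by 1.74 (SE 0.22, adjusted p = 7.71e-06). Il3 had gaps of 6.19 and 3.94, a difference of 2.25 (SE 0.57, adjusted p = 0.017), and its TN mean was 5.77 alone and 7.78 from the mix. Gzmb had gaps of 1.62 and 0.52, a difference of 1.10 (SE 0.11, adjusted p = 3.60e-07), and Eomes of 1.42 and 0.22, a difference of 1.20 (SE 0.12, adjusted p = 2.56e-07).

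Some genes lower in TMem also had wider gaps alone. Cd7 had gaps of -2.91 alone and -1.10 in the mix, a difference of -1.81 (SE 0.26, adjusted p = 3.45e-05). Tmem71, Slc28a2b, Ripor2 and Slc12a7 differed by -1.72, -1.66, -1.61 and -1.59. Among homing and survival receptors 8 of 15 had a more negative gap alone and 0 a more positive one, against 3.83% and 1.47% of autosomal genes. Among naive-cell factors 7 of 15 had a more negative and 1 a more positive gap, and among granule genes 8 of 22 a more positive and 2 a more negative one. The mitosis list showed 2 and 0 of 28, and the interferon gamma list 0 and 0 of 18. Akr1c18 was the reverse, with a gap of 0.82 alone and 2.65 in the mix. AA467197 was not called alone (0.66, adjusted p = 0.147, and 0.000323 to 0.32 over the alternatives, with the call gained under array weights, fewer groups and no 0 h arrays), and its gap differed from that in the mix by 1.78 (SE 0.46, adjusted p = 0.018). The mix arrays were sorted from a shared culture, and the purity of the sort is not given in the sources used here.

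By 96 h alone, the gap was called for 4262 genes (22.3%), and it differed from that at 18 h for 3052 (16.0%), 1208 more positive at 18 h (6.32%) and 1844 more negative (9.65%). Of the 2975 genes higher at 18 h, 1408 were higher at 96 h (47.3% and 52.0%), and of the 2595 lower 938 were (36.1% and 60.4%). Mitosis genes were 2 of 28 higher at 96 h (median 0.11), against 14.2% of autosomal genes, and the gap was larger at 18 h for 28, against 6.32%. S phase genes gave 1 higher and 5 lower at 96 h, against 14.2% and 8.13% of autosomal genes. Their gap was larger at 18 h for 32 of 32, against 6.32%. Rrm2 had gaps of 4.75 at 18 h and 0.02 at 96 h, a difference of 4.73 (SE 0.15, adjusted p = 8.98e-19), and Bub1 and H2ac4, near background in TN at 18 h, differed by 4.36 and 5.85 as measured. Il3 was near background in both cell types at 96 h, with means of 4.41 in TMem and 5.17 in TN. Ccl1 had a gap of -0.38 at 96 h.

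Some granzymes had a larger gap at 96 h. Gzmd, near background in TN at both times, had a gap of at least 2.37 at 18 h and at least 6.47 at 96 h, and the measured gaps differed by -4.10 (SE 0.27, adjusted p = 3.34e-12). Gzme, Gzmg and Gzmf differed by -3.68, -2.93 and -1.66, while Gzmb had the larger gap at 18 h (a difference of 1.32), and the differences of Gzmc and Gzmn, -0.37 and -0.19, were not called. Of 22 granule genes 18 were higher in TMem at 96 h and 2 lower, against 14.2% and 8.13% of autosomal genes. Scd1 and Havcr2 had gaps of at least 5.74 and 3.85 at 96 h. Il7r, Klf2 and S1pr1 had gaps of -0.44, -1.26 and -1.46. Of the homing list 13 of 15 were lower at 96 h, of the interferon gamma list 17 of 18 and of the type I list 18 of 23, against 8.13% of autosomal genes. Glycolysis and cholesterol genes were higher at 96 h in 16 of 17 and 17 of 19, against 14.2%.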

How the data were processed

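The deposited table holds 1 log2 intensity value per probe set and array, made by the authors with RMA and Partek, per the submitters' processing notes. Their versions, order and roles are unstated, and the labels name an Affymetrix whole transcript labelling kit. Values ran from 2.047 to 14.163 and were used as deposited. Scanner files, scan dates and detection calls were not analysed here, and the number of arrays limits the precision. Of 35556 rows, 21789 named 1 gene (1621 named several and 12146 had none listed). By gene number, 21698 matched the RefSeq gene table (GRCm38.p6), used for names and chromosomes. For 999 genes with several rows the row with the highest mean was kept, which left 19938 genes.

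A mean for each of 10 groups was fitted to all 30 arrays with limma 3.58.1 (lmFit and eBayes) under R 4.3.3, which left 20 residual degrees of freedom. Benjamini-Hochberg adjustment ran over all 19938 genes within each 2-sided contrast, and counts are over autosomes. No filter on low values was applied. The procedure was tested on simulated data with independent normal noise for each gene. That simulation held no batch, sex or array-quality effect, so it does not bear on these. The genes named were the 14 largest called rises and falls and the 6 largest differences between gaps each way, with no overlap between groups where that applies, list members, and 24 genes followed throughout (22 measured). Unnamed loci and receptor gene segments were passed over. The 45 lists had 872 members written and 794 measured, and the rest were not analysed here. Members, lists and comparisons were chosen with earlier results of these data known. Alternatives were quantile normalization, centring on the median, array weights, a trend with robust fitting, other rows for a gene, leaving out low values, fewer groups, a replicate block and leaving out each array.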

Additional observations from a re-analysis of the deposited data

Results flagged for a closer look

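The difference between the gap of TMem and TN at 18 h alone and the gap at 0 h was tested directly and called for 5560 autosomal genes. The gap became more positive for Kcnma1 (5.76), Il3 (5.15), Il1a (4.43), Rgs2 (4.39), Idi2 (4.05) and Csf2 (3.83). It became more negative for Iigp1 (-4.27), Gzmb (-4.23), Il2ra (-4.13), Gbp7 (-3.57), Il12rb2 (-3.56) and Gbp4 (-3.37).

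Between culture alone and mixed culture at 18 h, the gap differed for 1012 genes. It was more positive alone for Il3 (2.25), Tnfsf4 (1.85), Cd83 (1.83), AA467197 (1.78), Gzmc (1.78) and Serpinb9 (1.74). It was more negative alone for Akr1c18 (-1.83), Cd7 (-1.81), Tmem71 (-1.72), Slc28a2b (-1.66), Ripor2 (-1.61) and Slc12a7 (-1.59).

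Between 18 h and 96 h alone, the gap differed for 3052 genes. It was more positive at 18 h for Il3 (6.96), H2ac4 (5.85), Kcnma1 (4.91), Ccl1 (4.90), Rrm2 (4.73) and Bub1 (4.36). It was more negative at 18 h for Gzmd (-4.10), Gzme (-3.68), Ly6a2 (-3.46), Gpr141 (-3.34), Gzmg (-2.93) and Ifi208 (-2.69).

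Near background at 1 or both of the times set against each other, in 1 or both cell types, were Il3 at 0 h and 96 h, Il1a, Idi2 and Csf2 in the first set and H2ac4, Bub1, Gzmd and Gpr141 in the last. Their values are as measured and are no bounds.

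Y-linked transcripts lie outside the autosomal comparison. Eif2s3y averaged 8.14 in TN alone at 18 h, against 4.19 in TN alone at 0 h, in mice that the labels give as female. Kcnma1 also differed between TN arrays at 0 h, 18 h and 96 h, but at 96 h mix TN arrays were high in both. The TN arrays at 18 h carried Xist as well as Y-linked transcripts, and whether they held cells of both sexes was not tested. Whether they came from other animals than the TN arrays at 0 h and 96 h was not tested either.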

How the results depend on the processing

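No named gene that was called at 18 h, here or under a setting run, changed sign. The count of genes whose gap differed between alone and mixed culture, 1012, became 2863 when arrays were weighted, 1915 when the fit held the 4 groups of that test alone, and 2042 without the 0 h arrays. That between 18 h and 96 h, 3052, became 5613 with weighted arrays and 4790 in a fit of its own 4 groups. The calls at 18 h, 5570, became 7418 with weighted arrays, 6747 in a fit of the groups compared alone and 6485 without the 0 h arrays. The cause was not tested. Leaving out 1 array gave 4799 to 5037 calls at 18 h, 1084 to 1111 of them with a difference of at least 1, and 4925 to 5882, 721 to 883 and 2559 to 2798 for the differences of gaps from 0 h, mix and 96 h. Centring each array turned the split of the alone against mix difference from 281 higher and 731 lower to 448 and 403, and that of 18 h against 0 h from 2719 and 2841 to 3238 and 2257.

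With the replicate block, 2921 genes were higher and 2540 lower at 18 h. Deviations of same-numbered arrays correlated at 0.0601, 0.0757 and 0.2392, and TMem replicate 2 correlated best with TN replicate 1, so the numbers were not taken to pair the arrays. Over named genes and settings, 3624 pairs called here were called under the setting too, 61 were not, 22 were called only under the setting and 790 in neither. The 10 genes that gained a call were Il12rb2, AA467197, Cma1, Cd163l1, Prss34, Sox13, Ccr7, Cpa3, Fas and S100a9, each under 1 to 4 settings. Of the 45 lists, 12 had a count of called members that moved by over 1.5 times under some setting. They were the AP-1, fatty acid oxidation, proteasome, respiratory chain (2 to 12), ribosomal protein (1 to 12), ribosome assembly (10 to 21) and Y-linked lists and 5 lists of other cells.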
